A study of Mus musculus with 7 samples.

Results

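Fatty acid oxidation and ketogenesis were followed in mouse intestinal epithelial cells through 34 genes, taken from a fixed list of symbols covering the mitochondrial and the peroxisomal steps, ketone body metabolism and genes regulated by peroxisome proliferator-activated receptors (PPARs). Each of the 34 had a probe on the array, out of 20887 genes with a probe. A feature was tested if its probe was well above background on at least 2 of the 7 arrays, and 33 of the 34 members were tested among 24760 features. Of these features 13802 were genes with a symbol and 10958 were single probes without a symbol. All 33 tested members were well above background on all 7 arrays, which other features need not be. Cyp4a14, a fatty acid omega-hydroxylase, was not well above background on any of the 7 arrays and was not tested.

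MOB1A and MOB1B are adaptor proteins of the Hippo pathway, and the study deleted both genes from the intestinal epithelium. The control group held 2 arrays from Mob1a f/f; Mob1b f/f mice without Cre, labelled wild type. The knockout groups carried the same floxed alleles with Villin-creERT2 and were taken at 4 days (2 arrays), 7 days (2 arrays) and 10 days (1 array) after tamoxifen. Every mouse was male, on a C57BL/6J background reached by more than 6 generations of backcrossing, and was given tamoxifen by intraperitoneal injection at 8 weeks of age, at 80 mg/kg per day for 2 days. The controls are labelled as taken 7 days after tamoxifen, while the study's design text gives that group day 0, so their day is not settled. Villin-creERT2 restricts recombination to epithelium that expresses Villin. Only the knockout mice carried the recombinase, so an effect of active CreERT2 cannot be told apart from the deletion. Total RNA came from epithelial cells that were released from the proximal intestine in 2 mM EDTA, and the design text gives different mice for each time.

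Mitochondrial oxidation starts with the carnitine shuttle, which carries long acyl groups across the inner membrane. A cycle of dehydrogenation, hydration, a further dehydrogenation and thiolysis then shortens the chain and passes electrons through the electron transfer flavoprotein to the respiratory chain. Peroxisomes run a parallel cycle on very long and branched chains. PPARα, a nuclear receptor that binds fatty acids, induces genes of both cycles. Absorptive enterocytes take up dietary fat and are rich in these enzymes. Ketogenesis turns acetyl-CoA into ketone bodies.

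Levels are given on a log2 scale relative to the 75th percentile of each array. A level of 1 is therefore a signal 1 doubling above that percentile, and levels of different genes cannot be compared because probes differ in affinity. Per array, 45.2% to 51.3% of probes exceeded background clearly, no spot was saturated, and arrays of a group correlated at 0.986 (control), 0.988 (day 4) and 0.977 (day 7). The array at day 10 stood apart: its 75th percentile was 545 intensity units against 315 to 395 on the other 6. All 7 arrays shared a slide and a scan, with the control and day 4 arrays in its first row and the day 7 and day 10 arrays in its second, so the row cannot be told apart from day 7 or day 10 against control. Both Mob1b probes were lower on each of the 5 knockout arrays than on both controls, at -2.42 or below against -0.90 to -1.13 for the brighter probe. The Mob1a probe was well above background on only 5 arrays and stood at -4.26 to -2.18 in the knockout group against -3.87 and -3.71 in the controls. Where these probes lie relative to the deleted exons was not checked.

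The epithelial identity of the samples was checked against 10 enterocyte markers. All 10 were well above background on each control, day 4 and day 7 array, and their summed signal ranged from 2324 to 2561 times the 75th percentile in the controls, 2041 to 2545 at day 4 and 1979 to 2274 at day 7. At day 10 the sum was 407, Lct (lactase) was not well above background and all 10 were called lower. The sum of 9 secretory markers was 1057 to 1180 in the controls, 268 to 448 at day 7 (5 called lower) and 79.6 at day 10 (8 called lower). Of all features 4.5% were called lower at day 7 and 17.6% at day 10. The sum of 10 lymphocyte markers was 164 to 192 in the controls, 245 to 290 at day 7 and 9.48 at day 10. Its largest part was Gzma, at 7.41 and 7.17 in the controls, 7.99 and 7.71 at day 7 and 2.79 at day 10. Of 9 lymphocyte markers tested, Gzmb alone was called at day 7, higher (11.1%, beside 2.96% of features). The median difference over the 9 was 0.0041 there, and 6 were called lower at day 10. The sum of 7 myeloid markers was 36.4 to 37.8 in the controls, 44.0 to 51.8 at day 7 and 279 at day 10. Itgam was its largest part in the controls and at day 7. Of 6 myeloid markers tested 4 were called higher at day 10, where 10.4% of features were. S100a9 had a level of 7.22 at day 10, against -6.07 and -6.52 in the controls, where it was not well above background. Lyz2 (-1.14) lay below both controls at day 10. Col1a1, Pdgfra and Lum (fibroblast), Cdh5 and Emcn (endothelial), Myh11, Des, Actg2 and Cnn1 (smooth muscle) and Adipoq, Plin1, Cfd, Lep and Retn (adipocyte) were above background on no array. Others of these lists were detected. Col1a2 (fibroblast), Pecam1 and Kdr (endothelial), Tagln (smooth muscle) and Cidec (adipocyte) were well above background on all 7 arrays. Dcn (fibroblast) and Esam (endothelial) were so on 5, Col3a1 on 3, Acta2 on 2 and Fabp4 at day 10 only. Dcn and Esam were called lower at day 7. The sum of 5 crypt and proliferation markers was 28.2 to 31.9 in the controls, 27.6 to 41.7 at day 7 and 33.0 at day 10. Of these, the stem cell markers Lgr5 (-1.56) and Ascl2 (-2.75) were called lower at day 7 and again at day 10, where Lgr5 was not well above background and Ascl2 differed by -3.50, and the other 3 were called in neither comparison. The sum of 8 immediate early and heat shock genes was 71.6 to 91.7 in the controls, 94.3 to 100.2 at day 7 and 107 at day 10. In bulk RNA, fewer cells of a type and less RNA per cell cannot be told apart. The part of these shifts in the results that follow was not tested.

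At day 7 most members lay below the controls, and few of them were called. A member was called when its Benjamini-Hochberg adjusted p in limma's moderated test, over all 24760 features, was under 0.05. At day 7 against control 6 of 33 members were called, or 18.2%, where 7.46% of all features were called. Vnn1 alone rose (2.96% of features were called higher), while Cyp4a10, Acot1, Acaa2, Decr1 and Eci2 fell (4.5% of features were called lower). The median difference was -0.70 over the members and -0.083 over all features. Both day 7 arrays lay below both controls for 25 of 33 members and above them for 3, against 32.4% and 21.8% of features. At an unadjusted p under 0.05 there were 22 members, against 22.6% of features. Without control replicate 1, control replicate 2 or day 7 replicate 1, 3 members were called.

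At day 4 no member was called, and 0.0323% of features were, each of them higher (0.0323% higher, 0% lower). By limma, 4 members had an unadjusted p under 0.05, where 6.23% of features did, and no alternative processing called any member. Their differences by limma were 1.29 for Vnn1, 1.31 for Angptl4, -1.11 for Cyp4a10 and -0.61 for Decr1, with adjusted p of 0.30, 0.37, 0.47 and 0.75. Both day 4 arrays were below both controls for 16 members and above them for 2, against 26.7% and 10.9% of features. The members' median difference was -0.28, beside -0.082 over all features.

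The single array at day 10 differed most. Its comparison assumes that it varies like the other groups. At day 10 against control 27 of 33 members were called (81.8%), 24 lower and 3 higher, where 28.1% of features were called, 17.6% lower and 10.4% higher. The members' median was -1.66 beside -0.15 over all features. Leaving out any of the other 6 arrays left 21 to 26 members called. Scaling on probes detected throughout moved the all-feature median from -0.15 to 0.079, and scaling to the array median moved it to -0.35. These scalings shift every gene of an array alike. The members' median was 1.51 below that of all features, 1.35 below it under quantile normalization and 1.44 below it under normexp background correction. Among all features the share of calls that were higher was 37.2%, 49.1% when scaled to detected probes and 27.6% when scaled to the array median. For the members it was 3 of 27, 3 of 21 and 3 of 28. The 6 calls lost when scaled to detected probes were those of Angptl4, Creb3l3, Echs1, Eci2, Etfa and Pdk4 (adjusted p = 0.056 to 0.085). Under quantile normalization Bdh1 lost its call (adjusted p = 0.0504) and Pdk4 kept it. The enterocyte marker sum of 407 and the myeloid sum of 279 belong to this same array.

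The fall was ordered in time for part of the list. In 8 of 33 members (24.2%) every control array was above every day 4 array, these above every day 7 array, and these above the day 10 array, an order seen in 4.45% of all features. These members were Acaa2, Acadvl, Acot2, Decr1, Decr2, Ech1, Eci1 and Etfb. No member showed the opposite, rising order, which 1.66% of features showed. This count was chosen after the values were seen.

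**Figure D1:**
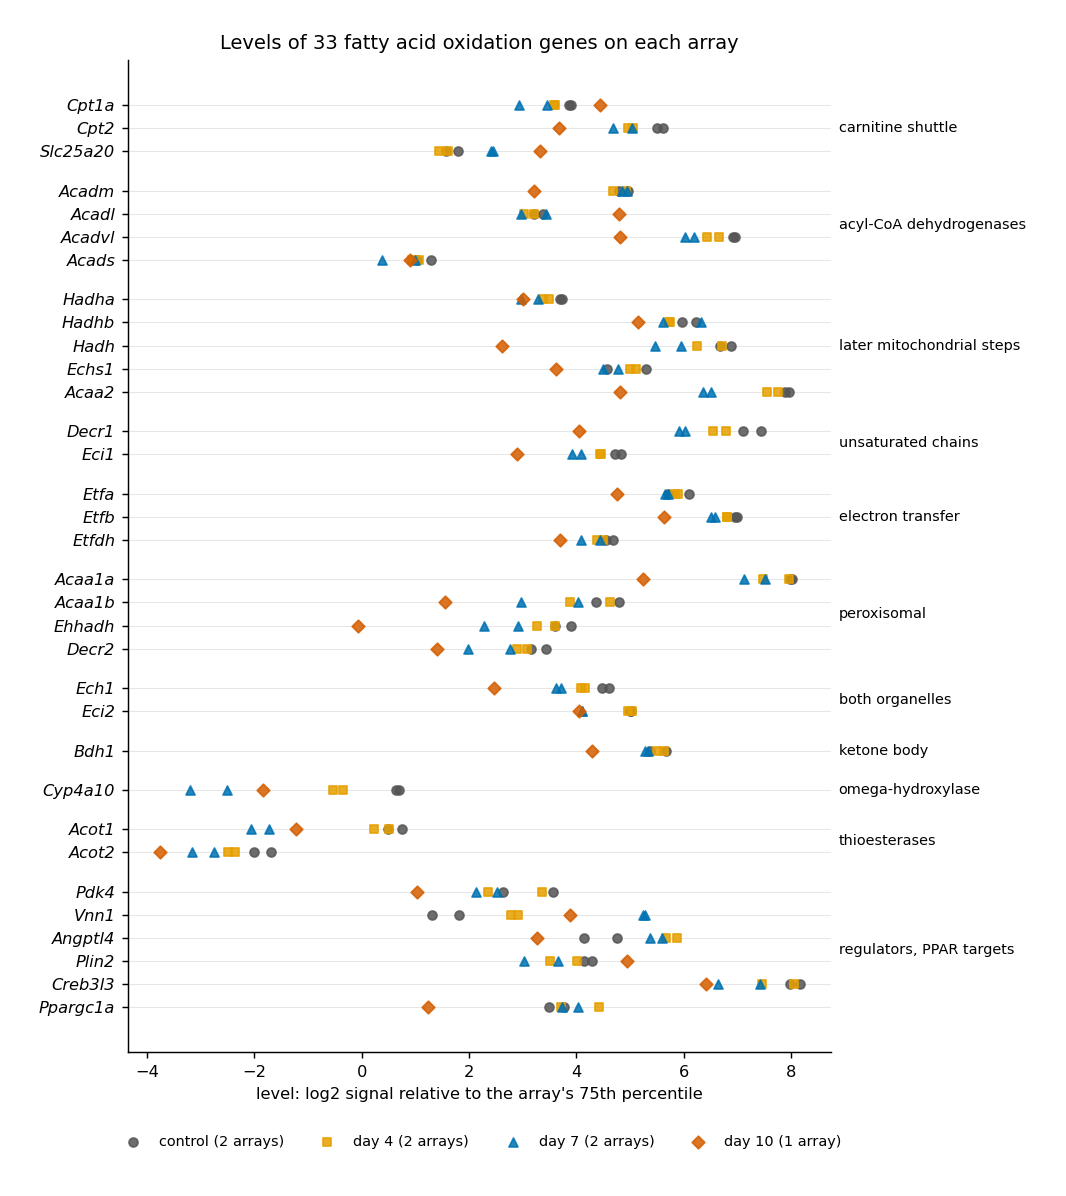
Level of each of the 33 tested members on each of the 7 arrays, as log2 signal relative to the array's 75th percentile (horizontal axis), with a symbol for each group and members grouped by role. At day 10, 24 of the 33 members were called lower than control, where 17.6% of all features were. Vnn1 lies to the right of both controls on all 5 knockout arrays. Levels of different genes are not comparable with each other.

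Sequence upstream of the members with the smallest p at day 7 was read from the RefSeq promoter table for GRCm38.p6, which gives 250 bases before to 50 after a gene's start. The table had 30 windows for 28 of the 34 members, and Acaa2, Angptl4, Cyp4a10, Cyp4a14, Decr1 and Vnn1 have none printed. The first 4 of these with an entry, of which Acot1 and Eci2 were called at day 7 and Acot2 and Ech1 were not, are shown 5′ to 3′ on the gene's strand: Acot1 (chr12:84009252-84009551, plus strand), Eci2 (chr13:34994095-34994394, minus strand), Acot2 (chr12:83987611-83987910, plus strand) and Ech1 (chr7:28825088-28825387, plus strand). Capitals mark matches on either strand to AGGNCA, the core that nuclear receptors of the PPAR class recognise in direct repeat.
Acot1: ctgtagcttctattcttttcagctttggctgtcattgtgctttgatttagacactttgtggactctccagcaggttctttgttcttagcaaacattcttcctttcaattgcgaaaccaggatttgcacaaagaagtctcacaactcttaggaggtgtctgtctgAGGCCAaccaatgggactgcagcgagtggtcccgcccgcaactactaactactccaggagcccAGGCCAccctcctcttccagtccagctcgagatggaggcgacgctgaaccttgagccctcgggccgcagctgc
Eci2: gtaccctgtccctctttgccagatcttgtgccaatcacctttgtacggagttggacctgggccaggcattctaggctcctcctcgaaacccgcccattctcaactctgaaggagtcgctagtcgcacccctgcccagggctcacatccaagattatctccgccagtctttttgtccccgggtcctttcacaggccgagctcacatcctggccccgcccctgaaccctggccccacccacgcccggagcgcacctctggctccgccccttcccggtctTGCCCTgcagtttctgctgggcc
Acot2: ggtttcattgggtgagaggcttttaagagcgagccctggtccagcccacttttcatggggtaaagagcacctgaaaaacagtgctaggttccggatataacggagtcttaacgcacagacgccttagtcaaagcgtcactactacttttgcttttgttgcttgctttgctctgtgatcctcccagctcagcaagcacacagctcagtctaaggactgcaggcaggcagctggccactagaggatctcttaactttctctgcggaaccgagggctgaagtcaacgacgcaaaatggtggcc
Ech1: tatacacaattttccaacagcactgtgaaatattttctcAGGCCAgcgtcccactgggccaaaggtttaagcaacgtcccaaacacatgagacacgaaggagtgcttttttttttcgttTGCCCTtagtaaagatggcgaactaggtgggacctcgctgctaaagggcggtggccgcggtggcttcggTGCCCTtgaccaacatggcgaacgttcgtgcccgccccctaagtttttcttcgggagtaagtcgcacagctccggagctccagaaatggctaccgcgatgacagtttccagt
Counted from the start site, Acot1 held this core at -86 and -23, Eci2 at 28, Ech1 at -211, -131 and -62, and Acot2 held none. Of all 32851 promoter windows 57.2% held at least 1 match on either strand, and of the members' windows 23 of 30 (76.7%) did. The windows of Hadha and Hadhb overlap, and their match is the same stretch of bases, which therefore counts in both. This short core was searched after the data were seen. The direct repeat of the core spaced by 1 base, AGGNCANAGGNCA, was in 0.381% of all windows and in 0 of the 30. The HNF4 core CAAAGTCCA was in 0.475% of all windows and in 0 of the 30. The core GGAATG of the TEAD factors, through which the Hippo pathway acts, was in 14.7% of windows and in 4 of the 30 (13.3%), those of Cpt1a, Ehhadh, Etfb and Slc25a20, and in Etfb it overlapped an AGGNCA match. A match describes the letters of a window and not a site in use.

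The 3 members of the carnitine shuttle went different ways. Slc25a20, the inner membrane carrier that exchanges acylcarnitine for carnitine, stood at 1.58 and 1.79 on the control arrays, 1.62 and 1.44 at day 4, 2.45 and 2.40 at day 7, and 3.33 at day 10. Both day 7 arrays and the day 10 array were above every control. The difference from control was 0.74 ± 0.21 (adjusted p = 0.10) at day 7 and 1.64 ± 0.26 (adjusted p = 0.0062) at day 10, so the rise was called at day 10 and not at day 7. Cpt2, which hands the acyl group back to CoA in the matrix, stood at 5.50 and 5.61 in the controls, 5.06 and 4.97 at day 4, 5.03 and 4.68 at day 7 and 3.68 at day 10. All knockout arrays were below both controls, and the fall was called at day 10, with a difference of -1.87 ± 0.28 (adjusted p = 0.0047), and not at day 7 (-0.70 ± 0.23). Cpt1a, which makes acylcarnitine at the outer membrane and is the rate-setting step of entry, stood at 3.86 and 3.91 on the control arrays, 3.58 and 3.60 at day 4, 3.46 and 2.93 at day 7, and 4.45 at day 10. Its day 4 and day 7 arrays were below both controls and its day 10 array was above them, with differences of -0.69 ± 0.25 (adjusted p = 0.17) at day 7 and 0.57 ± 0.31 (adjusted p = 0.22) at day 10. The second Cpt1a probe gave -1.28 at day 7 and -0.084 at day 10, so its sign at day 10 was opposite to that of the first.

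Among the 4 acyl-CoA dehydrogenases, which open each turn of the cycle and are divided by chain length, no member was called at day 7 and the very-long-chain and medium-chain enzymes fell at day 10. Acadvl (very long chains) stood at 6.95 and 6.92 on the control arrays, 6.42 and 6.65 at day 4, 6.02 and 6.19 at day 7, and 4.82 at day 10. Its arrays fell in the order of the times without overlap, with differences of -0.83 ± 0.21 (adjusted p = 0.076) at day 7 and -2.12 ± 0.26 (adjusted p = 0.0026) at day 10. Acadm (medium chains) stood at 4.80 and 4.96 in the controls, 4.68 and 4.92 at day 4, 4.94 and 4.86 at day 7 and 3.22 at day 10. Only the day 10 array was low, at -1.66 ± 0.26 (adjusted p = 0.0062), and the day 7 difference was 0.017 ± 0.22. Acadl (long chains) stood at 3.21 and 3.38 on the control arrays, 3.02 and 3.22 at day 4, 3.43 and 2.97 at day 7, and 4.78 at day 10. The day 10 array was above all others, with a difference of 1.49 ± 0.31 (adjusted p = 0.015), and this call was lost without control replicate 1 (adjusted p = 0.063). Acads (short chains) ranged from 0.38 to 1.29 over the 7 arrays and was called in no comparison, with a day 7 difference of -0.47 ± 0.28.

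The hydratase, dehydrogenase and thiolase steps held the member of the mitochondrial cycle with the largest call at day 7. Acaa2, the thiolase that releases acetyl-CoA in the matrix, stood at 7.88 and 7.97 on the control arrays, 7.55 and 7.76 at day 4, 6.36 and 6.51 at day 7, and 4.82 at day 10. Day 7 arrays were well below the day 4 and control arrays, and the day 10 array was lower again. Acaa2 fell by 1.49 at day 7, a difference of -1.49 ± 0.21 (adjusted p = 0.014) or 2.81-fold, and by 3.10 at day 10 (adjusted p = 0.00070). The day 7 call was lost without control replicate 1 (adjusted p = 0.078), control replicate 2 (0.066) or day 7 replicate 1 (0.059). Hadh, the short-chain hydroxyacyl-CoA dehydrogenase, stood at 6.67 and 6.87 in the controls, 6.25 and 6.72 at day 4, 5.46 and 5.96 at day 7 and 2.61 at day 10. It had the largest fall of any member at day 10, with a difference of -4.16 ± 0.35 (adjusted p = 0.00068), or 17.9-fold, while at day 7 it was -1.06 ± 0.28 (adjusted p = 0.086). Echs1, the short-chain enoyl-CoA hydratase, stood at 4.57 and 5.30 on the control arrays, 5.01 and 5.11 at day 4, 4.77 and 4.49 at day 7, and 3.62 at day 10. Its control arrays lay apart and overlapped day 7, and the day 10 difference of -1.32 ± 0.37 (adjusted p = 0.042) was lost without any of control replicate 2, day 4 replicate 1 or 2, or day 7 replicate 1 or 2 (adjusted p = 0.054 to 0.118). Hadha and Hadhb, the subunits of the trifunctional protein that acts on long chains, were called in no comparison, with day 7 differences of -0.60 ± 0.22 and -0.12 ± 0.29. Hadha ranged from 2.97 to 3.74 and Hadhb from 5.14 to 6.32 over the 7 arrays. The starts of these subunit genes lie 273 bases apart on opposite strands of chromosome 5 in GRCm38.p6, and their promoter windows overlap by 228 bases.

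Decr1 and Eci1, the auxiliary enzymes that let unsaturated chains through the mitochondrial cycle, both fell at day 10. Decr1, the dienoyl-CoA reductase, stood at 7.43 and 7.11 on the control arrays, 6.55 and 6.78 at day 4, 6.02 and 5.92 at day 7, and 4.04 at day 10. Its arrays followed the order of the times without overlap. The difference was -1.30 ± 0.23 (adjusted p = 0.026) at day 7 and -3.23 ± 0.28 (adjusted p = 0.00078) at day 10, or 9.38-fold, and the second Decr1 probe gave -1.54 and -3.90. Leaving out any 1 of the control, day 4 or day 7 arrays ended the day 7 call (adjusted p = 0.061 to 0.149). Eci1, which moves a double bond into the position that the cycle can use, stood at 4.72 and 4.84 in the controls, 4.44 and 4.46 at day 4, 4.09 and 3.93 at day 7 and 2.90 at day 10. It kept the same order of times, with differences of -0.77 ± 0.21 (adjusted p = 0.086) and -1.88 ± 0.25 (adjusted p = 0.0034).

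The electron transfer flavoprotein, which accepts electrons from the acyl-CoA dehydrogenases, had small differences at day 7 and fell at day 10. Its subunit Etfb stood at 6.98 and 6.96 on the control arrays, 6.80 and 6.80 at day 4, 6.57 and 6.51 at day 7, and 5.62 at day 10. The arrays fell in the order of the times, with -0.43 ± 0.20 at day 7 and -1.34 ± 0.24 (adjusted p = 0.0099) at day 10. The other subunit, Etfa, stood at 5.71 and 6.10 in the controls, 5.84 and 5.90 at day 4, 5.65 and 5.70 at day 7 and 4.75 at day 10. The day 10 array was the lowest, at -1.16 ± 0.28 (adjusted p = 0.027), a call that was lost without control replicate 2 (0.099) and when either day 4 array was left out (0.056 each). At day 7 Etfa differed from control by -0.23 ± 0.23, and its second probe by 0.15, with the opposite sign. Etfdh, which passes the electrons on to ubiquinone, ranged from 3.70 to 4.68 and was called in no comparison, at -0.35 ± 0.23 at day 7.

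All 4 peroxisomal members were below both controls on both day 7 arrays, as were 32.4% of all features. None of the 4 was called there, and all 4 fell at day 10, where 17.6% of features were called lower. Ehhadh, the bifunctional enzyme of the peroxisomal cycle and a standard PPARα target, stood at 3.60 and 3.89 on the control arrays, 3.27 and 3.60 at day 4, 2.29 and 2.91 at day 7, and -0.058 at day 10. The difference grew from -1.15 ± 0.29 (adjusted p = 0.076) at day 7 to -3.81 ± 0.36 (adjusted p = 0.0010) at day 10, or 14.0-fold, and the day 7 value was called without day 7 replicate 2 (adjusted p = 0.049). Acaa1a, the peroxisomal thiolase, stood at 8.02 and 7.97 in the controls, 7.47 and 7.96 at day 4, 7.13 and 7.51 at day 7 and 5.23 at day 10. Its close copy Acaa1b stood at 4.37 and 4.80 in the controls, 3.89 and 4.62 at day 4, 2.97 and 4.03 at day 7 and 1.55 at day 10. Both were lowest at day 10, at -2.76 ± 0.33 (adjusted p = 0.0022) and -3.04 ± 0.53 (adjusted p = 0.0088), and the Acaa1b call was lost under normexp background correction (adjusted p = 0.0503). Cross-hybridisation between these copies was not assessed, so their separate values are uncertain. Decr2, the peroxisomal dienoyl-CoA reductase, stood at 3.43 and 3.16 on the control arrays, 2.89 and 3.08 at day 4, 1.97 and 2.76 at day 7, and 1.40 at day 10. Its arrays fell in the order of the times, and the day 10 difference of -1.89 ± 0.38 (adjusted p = 0.015) was lost without control replicate 1 (adjusted p = 0.057).

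Enzymes known from both organelles were Ech1, a dienoyl-CoA isomerase, and Eci2, an enoyl-CoA isomerase, whose promoters are printed above. Ech1 stood at 4.61 and 4.47 on the control arrays, 4.09 and 4.16 at day 4, 3.71 and 3.62 at day 7, and 2.47 at day 10. The arrays fell in the order of the times, with -0.87 ± 0.21 (adjusted p = 0.059) at day 7 and -2.07 ± 0.25 (adjusted p = 0.0024) at day 10. Eci2 stood at 5.00 and 5.02 in the controls, 4.96 and 5.04 at day 4, 4.10 and 4.10 at day 7 and 4.04 at day 10. The day 4 arrays lay around the controls, and the day 7 and day 10 arrays were lower and close to each other. Its day 7 difference of -0.91 ± 0.20 (adjusted p = 0.0497) was at the threshold and was called in 3 of 17 alternatives, and leaving out any 1 of the other 6 arrays ended the call (adjusted p = 0.087 to 0.219). The day 10 difference of -0.97 ± 0.25 (adjusted p = 0.031) was lost without control replicate 1 or 2 or day 4 replicate 1 or 2 (adjusted p = 0.060 to 0.107).

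Set side by side, the 17 mitochondrial members had a median difference of -0.47 at day 7, with 2 of 17 called lower (11.8%, beside 4.5% of all features), and of -1.32 at day 10, with 10 lower (58.8%, beside 17.6%) and 2 higher (11.8%, close to the 10.4% of all features). The 6 members that are peroxisomal or in both organelles had -0.92 at day 7, with 1 of 6 called lower, and -2.41 at day 10, with all 6 lower. The difference between these lists was not tested. The 4 that are peroxisomal alone had medians of -1.01 and -2.90.

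**Figure D2:**
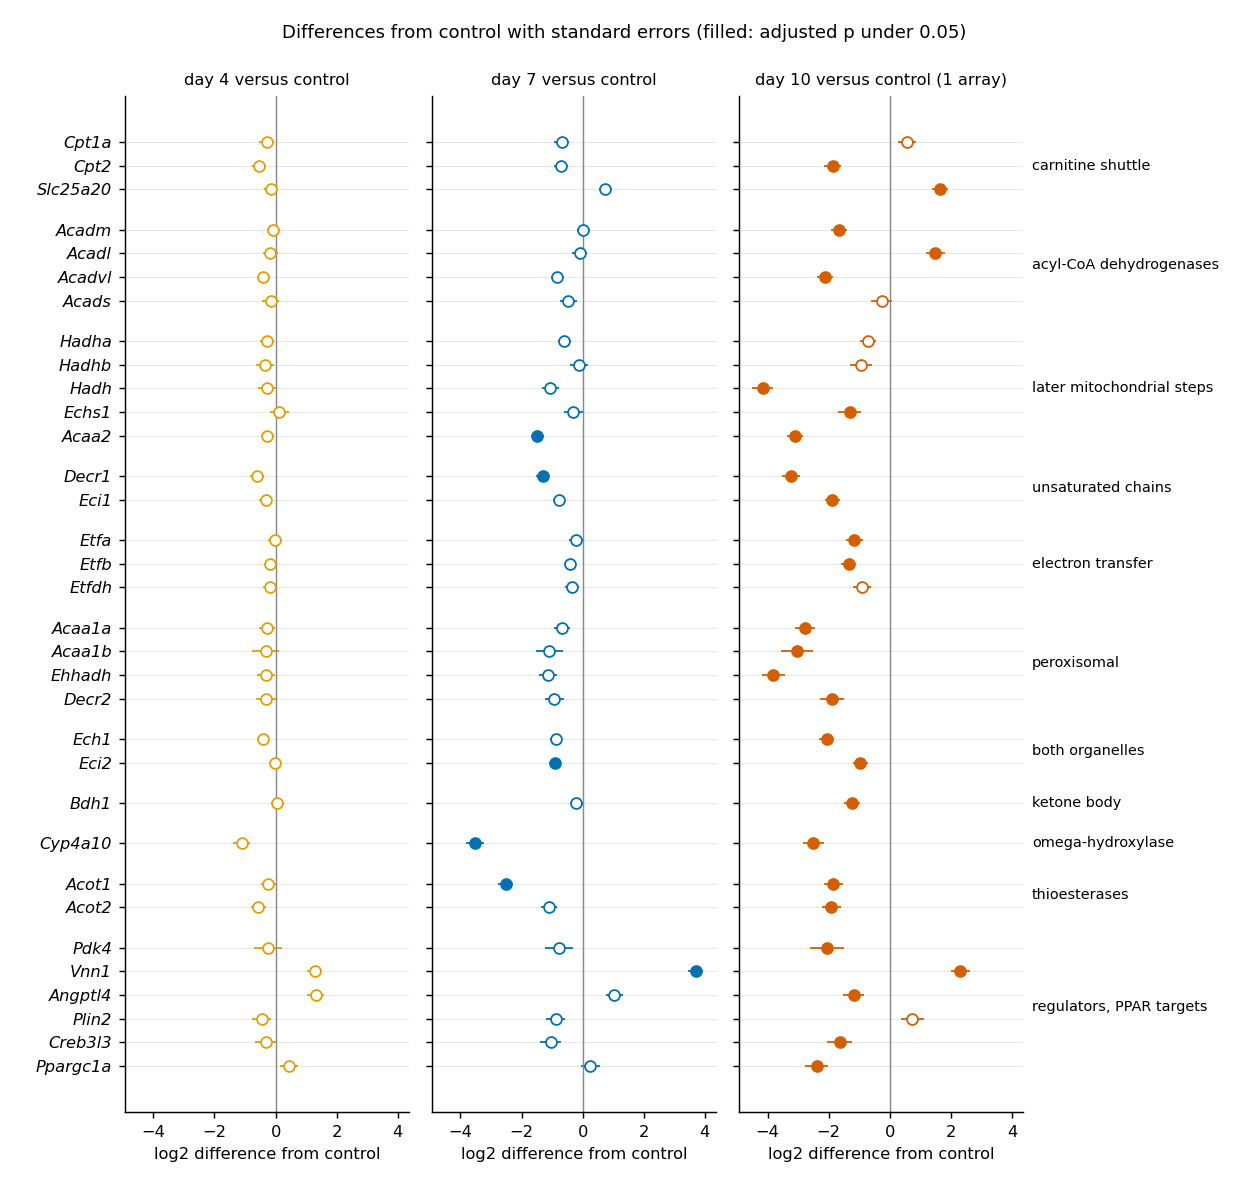
Difference from control of each tested member at day 4, day 7 and day 10 on the log2 scale, with the standard error from limma as bars and filled symbols for called members, grouped by role. The 4 peroxisomal members lie to the left of 0 in all panels, and Vnn1, Slc25a20 and Acadl are the members called higher at day 10.

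In ketone body metabolism the list held Bdh1, the mitochondrial enzyme that interconverts acetoacetate and 3-hydroxybutyrate. Bdh1 stood at 5.66 and 5.37 on the control arrays, 5.63 and 5.51 at day 4, 5.34 and 5.28 at day 7, and 4.29 at day 10. Only the day 10 array was clearly lower, at -1.23 ± 0.27 (adjusted p = 0.019), a call lost without control replicate 1 (adjusted p = 0.084), and day 7 differed by -0.20 ± 0.22. The other 2 Bdh1 probes gave -0.85 and -0.089 at day 7 and -2.29 and -1.01 at day 10.

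Cyp4a10, the microsomal omega-hydroxylase and a strong PPARα target in mouse tissues, stood at 0.65 and 0.69 on the control arrays, -0.34 and -0.54 at day 4, -2.50 and -3.20 at day 7, and -1.83 at day 10. It was lower at day 4 than in both controls, lowest at day 7, and at day 10 between day 4 and day 7. The difference from control was -3.52 ± 0.29 (adjusted p = 0.0035) at day 7, a 11.5-fold fall, and -2.50 ± 0.35 (adjusted p = 0.0040) at day 10. The day 7 call held in 17 of 17 alternatives. Both other Cyp4a10 probes were well above background on 5 of 7 arrays and gave fitted differences of -5.83 and -4.15 at day 7, where some of the day 7 signals are bounds only. At day 10 these probes differed from each other, since the first was not well above background and lay below both day 7 arrays, with a fitted -7.57 from control, while the other lay between day 4 and day 7, at -2.12. The Cyp4a genes are near-identical copies and their probes may share signal, which was not assessed.

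The acyl-CoA thioesterases, which free fatty acids from CoA and are PPARα targets, both fell at day 10 and Acot1 also at day 7. Acot1, the cytosolic enzyme, stood at 0.49 and 0.75 on the control arrays, 0.52 and 0.23 at day 4, -2.06 and -1.72 at day 7, and -1.23 at day 10. Day 4 overlapped with control, and day 7 and day 10 were well below. The difference was -2.51 ± 0.25 (adjusted p = 0.0050) at day 7, 5.70-fold, and -1.85 ± 0.30 (adjusted p = 0.0068) at day 10, and the day 7 call held in 17 of 17 alternatives. Acot2, the mitochondrial enzyme, stood at -2.00 and -1.69 in the controls, -2.35 and -2.48 at day 4, -2.76 and -3.15 at day 7 and -3.76 at day 10. It fell in the order of the times, with -1.11 ± 0.25 (adjusted p = 0.052) at day 7 and -1.91 ± 0.30 (adjusted p = 0.0062) at day 10. The genes start 21641 bases apart on the plus strand of chromosome 12 and encode closely related proteins, so signal shared between their probes was not assessed.

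Vnn1, a pantetheinase that returns the CoA precursor pantothenate and is a PPARα target in liver, was the member called higher at day 7. It stood at 1.31 and 1.81 on the control arrays, 2.79 and 2.91 at day 4, 5.28 and 5.24 at day 7, and 3.87 at day 10. Every knockout array was above both controls, and day 7 was the highest time. Vnn1 rose 13.0-fold at day 7, a difference of 3.70 ± 0.25 (adjusted p = 0.0021), and 4.96-fold at day 10 (2.31 ± 0.30 (adjusted p = 0.0031)), and the day 7 call held in 17 of 17 alternatives. Angptl4, a secreted inhibitor of lipoprotein lipase, stood at 4.14 and 4.77 in the controls, 5.66 and 5.87 at day 4, 5.60 and 5.38 at day 7 and 3.27 at day 10. It was above the controls at day 4 and day 7 and below them at day 10, with differences of 1.04 ± 0.28 (adjusted p = 0.088) and -1.18 ± 0.34 (adjusted p = 0.047). Its day 10 call was lost without control replicate 2 (adjusted p = 0.144), day 4 replicate 1 or 2 (0.085 each), or day 7 replicate 1 or 2 (0.059 each).

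Plin2, a coat protein of lipid droplets, stood at 4.14 and 4.29 on the control arrays, 3.51 and 4.02 at day 4, 3.65 and 3.02 at day 7, and 4.95 at day 10. Day 7 was below the controls and day 10 above them, with differences of -0.88 ± 0.31 and 0.73 ± 0.38, neither called. Pdk4, which inhibits pyruvate dehydrogenase and so spares glucose when fat is oxidised, stood at 2.63 and 3.56 in the controls, 2.35 and 3.36 at day 4, 2.12 and 2.52 at day 7 and 1.04 at day 10. Its control arrays lay apart, and day 4 overlapped with them. The day 10 difference of -2.06 ± 0.55 (adjusted p = 0.037) was lost without control replicate 2 (adjusted p = 0.103) or when either day 7 array was left out (0.055 each). Creb3l3, a transcription factor of the intestine and liver that acts with PPARα, stood at 8.15 and 7.98 on the control arrays, 7.45 and 8.05 at day 4, 6.64 and 7.41 at day 7, and 6.42 at day 10. Day 7 and day 10 were below both controls, at -1.04 ± 0.35 (adjusted p = 0.14) and -1.65 ± 0.42 (adjusted p = 0.033), and the latter was lost without control replicate 1 (adjusted p = 0.104) or 2 (0.072). Ppargc1a, the coactivator of mitochondrial genes, stood at 3.76 and 3.49 in the controls, 3.71 and 4.42 at day 4, 3.73 and 4.02 at day 7 and 1.24 at day 10. Control, day 4 and day 7 arrays overlapped, and day 10 was lower by 2.39 (adjusted p = 0.0059).

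**Figure D3:**
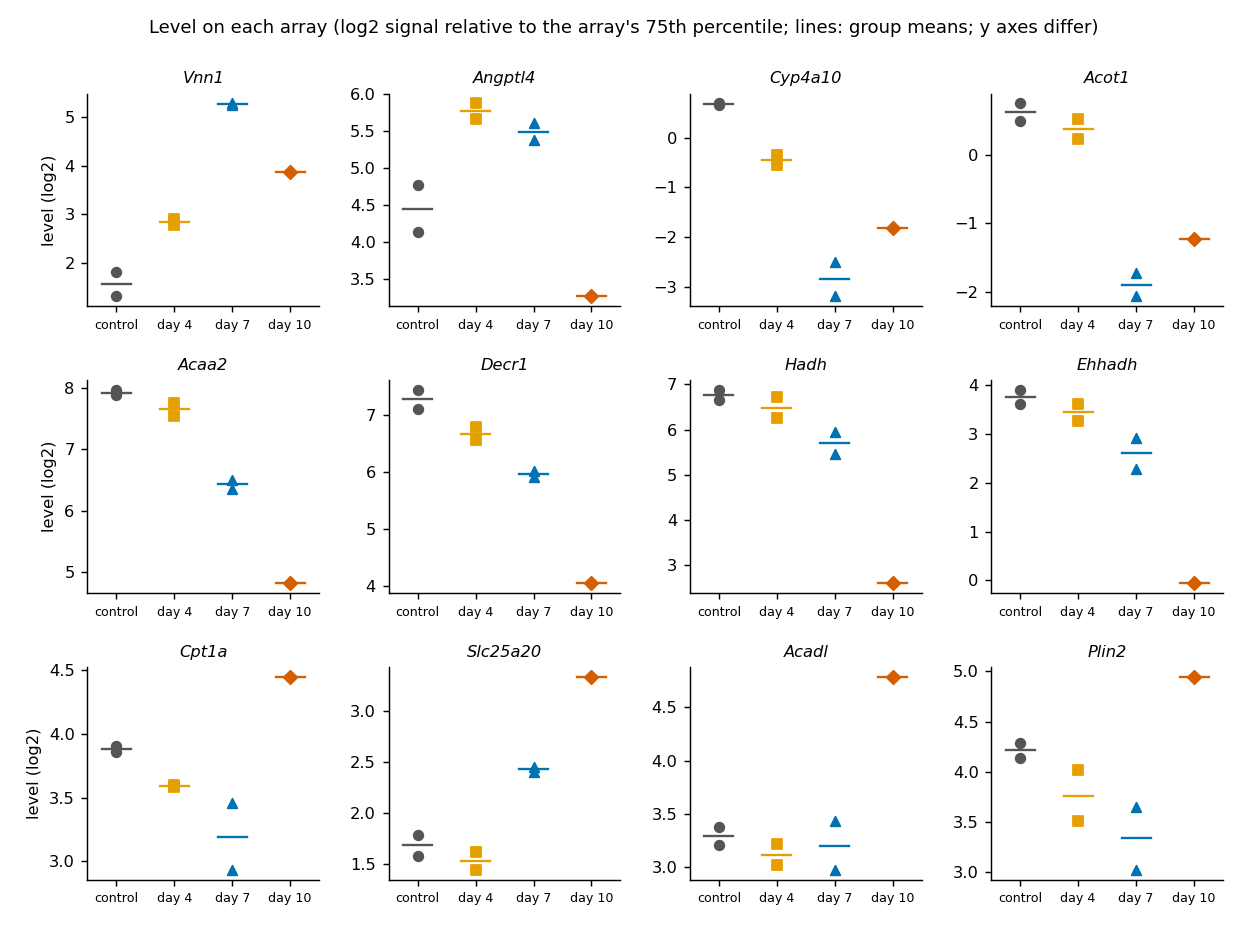
Levels of 12 selected members on each array by group, in log2 signal relative to the array's 75th percentile, with a point per array and a line at the mean of each group. Vnn1 is highest at day 7, Cyp4a10 and Acot1 are lowest there, and Acaa2, Decr1 and Hadh are lowest on the day 10 array.

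Between day 4 and day 7 of the knockout, 4 of 33 members were called (12.1%), where 2.67% of features were, 1.24% higher and 1.43% lower. Vnn1 rose by 2.41 ± 0.25 (adjusted p = 0.013). Cyp4a10 fell by 2.41, Acot1 by 2.27 and Acaa2 by 1.22 (adjusted p = 0.019, 0.016 and 0.046). The members' median was -0.43 and that of all features -0.0084. With median scaling the share of higher calls among all features went from 46.4% to 34.4%, and 1 of 4 member calls was higher under both. Without day 4 replicate 2 no member was called: the adjusted p became 0.129 for Vnn1, 0.155 for Cyp4a10, 0.124 for Acot1 and 0.266 for Acaa2. Without day 4 replicate 1 they were 0.099, 0.117, 0.103 and 0.166. Day 7 replicate 1 also carried calls: without it Vnn1 had 0.057, Acot1 0.060 and Acaa2 0.159. For Acaa2 the call was lost too without day 7 replicate 2 (0.063) or either control (0.089 each).

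From day 7 to day 10, 17 of 33 members were called (51.5%), 14 lower and 3 higher, where 17.9% of features were, 10.7% lower and 7.2% higher. The members' median was -1.01 beside -0.082 for all features. Hadh (-3.10), Ehhadh (-2.66), Ppargc1a (-2.64) and Angptl4 (-2.22) fell most, and Plin2 (1.61), Acadl (1.58) and Cpt1a (1.26) rose. Vnn1 fell by 1.39 from its day 7 level. Among all features the share of higher calls was 40.2%, 51.0% scaled to detected probes and 30.0% scaled to the median. For the members these were 3 of 17, 4 of 15 and 1 of 17. Without 1 of the 6 replicated arrays, 10 to 15 members were called. The calls of Bdh1 and Eci1 were lost without any of the 6 (adjusted p = 0.076 to 0.095 and 0.052 to 0.070). Those of Cpt1a and Plin2 were lost without any but day 7 replicate 1 (0.069 to 0.079 and 0.055 to 0.079), and that of Cpt2 without any but day 7 replicate 2 (0.065 to 0.075). Vnn1 and Ech1 lost theirs without day 4 replicate 1 or 2 or day 7 replicate 1 (0.060 to 0.065 and 0.055), Vnn1 also without day 7 replicate 2 (0.064), and Acadvl without day 7 replicate 2 (0.056).

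Genes around the members were read from lists of neighbouring steps, and up to 3 genes of each list, those with the smallest p at day 7, are named. These lists leave out the members. Of all features 7.46% were called at day 7 (4.5% lower, 2.96% higher) and 28.1% at day 10 (17.6% lower, 10.4% higher). Of 13 PPAR receptors and partners none was called at day 7 and 6 fell at day 10 (46.2%). At an unadjusted p under 0.05 there were 2 at day 7, beside 22.6% of features. Ppara itself stood at 4.05 and 3.49 on the control arrays, 3.85 and 4.40 at day 4, 2.43 and 2.71 at day 7, and -1.05 at day 10. Day 4 overlapped with control and day 7 lay below, with a difference of -1.20 ± 0.31 (adjusted p = 0.076), and Ppara fell by 4.83 at day 10 (adjusted p = 0.00057). Rxra, the receptor's partner, was at -0.64 ± 0.23 and Sirt3, a mitochondrial deacetylase, at -0.57 ± 0.26 at day 7. Of 13 genes of uptake and activation 1 was called at day 7 (7.69%, close to the 7.46% of all features) and 8 fell at day 10 (61.5%). Acsl6, an acyl-CoA synthetase, was not well above background at day 7 and was at least 5.72-fold lower (adjusted p = 0.012), a call lost without control replicate 1 (0.062) or day 7 replicate 1 (0.054). A fold given as "at least" sets the brighter group's mean against the lowest signal that counts as above background. Acsl4 (1.20 ± 0.36) and Acsm3 (0.68 ± 0.26), other activating enzymes, were not called.

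Of the other carnitine genes Bbox1 fell at day 7. Bbox1, the last enzyme of carnitine synthesis, stood at 3.22 and 4.02 on the control arrays, 2.77 and 3.18 at day 4, -0.14 and -0.054 at day 7, and -3.11 at day 10. Day 4 was below both controls, day 7 far below it, and day 10 lower again. Bbox1 fell 13.2-fold at day 7, a difference of -3.72 ± 0.33 (adjusted p = 0.0039), in 17 of 17 alternatives. It was the only called gene of 9 carnitine genes at day 7 (11.1%, beside 7.46% of all features). At day 10, 4 of the 9 fell (44.4%, beside 17.6% of all features) and 1 rose (11.1%, close to 10.4%). Slc25a29 (-1.12 ± 0.25), a mitochondrial carrier, and Aldh9a1 (-0.61 ± 0.22), an earlier step of carnitine synthesis, were not called at day 7.

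Of 18 further mitochondrial oxidation genes 2 fell at day 7 (11.1%, beside 4.5% of all features). At day 10, 12 fell (66.7%, beside 17.6%) and 1 rose (5.56%, beside 10.4%). Pccb, a subunit of propionyl-CoA carboxylase, stood at 0.69 and 0.37 in the controls, -0.048 and 0.087 at day 4, -1.47 and -1.14 at day 7 and -1.22 at day 10. Gcdh, the glutaryl-CoA dehydrogenase, stood at 1.32 and 1.02 in the controls, 0.97 and 0.89 at day 4, 0.071 and 0.13 at day 7 and -0.98 at day 10. Both were lower on both day 7 arrays than on every earlier array, at -1.83 ± 0.24 (adjusted p = 0.012) and -1.07 ± 0.22 (adjusted p = 0.040). The Pccb call was lost without control replicate 1 (0.072) or day 7 replicate 1 (0.051), and the Gcdh call without any 1 of the other 6 arrays (0.074 to 0.220). Acad12, a further acyl-CoA dehydrogenase, was at -0.99 ± 0.25 and not called. The mitochondrial list above and the peroxisomal list that follows share the gene Mlycd, which fell at day 10 and counts in both. Of 29 further peroxisomal genes 4 fell at day 7 (13.8%, median -0.94) and 24 at day 10 (82.8%, median -1.85). Eci3, a peroxisomal isomerase and close relative of Eci2, fell by 1.96, Hacl1, which shortens hydroxylated and branched acids, by 1.10, and Amacr, a racemase for branched chains, by 1.00 (adjusted p = 0.017, 0.041 and 0.037). Eci3 lost its call without control replicate 1 (0.090) or 2 (0.061) or day 7 replicate 1 (0.053), and Hacl1 and Amacr without any 1 of the other 6 arrays (0.070 to 0.159 and 0.071 to 0.176). Of 15 peroxins, the proteins that build peroxisomes, none was called at day 7 by limma. At an unadjusted p under 0.05 there were 4, beside 22.6% of features, and 7 of the 15 fell at day 10 (46.7%). Pex11a (-0.95 ± 0.21) and Pex11g (-0.85 ± 0.21), which promote peroxisome division, and Pex19 (-0.61 ± 0.20), a chaperone of peroxisomal membrane proteins, had the smallest p at day 7.

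Of 8 other genes of ketone bodies 1 rose and 1 fell at day 7 (12.5% each, beside 2.96% and 4.5% of all features). Oxct1, which activates acetoacetate for use as fuel, stood at 5.19 and 5.09 in the controls, 5.71 and 5.66 at day 4, 6.48 and 6.62 at day 7 and 5.87 at day 10. It rose by 1.41 ± 0.21 at day 7 (adjusted p = 0.015), and the call was lost without control replicate 1 (0.081) or 2 (0.070). Slc16a6, a transporter that exports ketone bodies, fell by 1.99 (adjusted p = 0.0070). Bdh2, a cytosolic dehydrogenase, stood at 2.14 and 2.36 in the controls, 1.24 and 2.06 at day 4, 0.97 and 0.83 at day 7 and -1.16 at day 10, at -1.35 ± 0.32 (adjusted p = 0.058) at day 7, where it was not called. At day 10, 4 of the 8 fell (50%, beside 17.6% of all features).

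Other PPAR targets fell where they were called at day 7, in 6 of 24 genes (25%, beside 4.5% of all features). Cyp4a31 and Cyp4a32, copies of Cyp4a10, led them. Cyp4a31 stood at 0.18 and 0.48 on the control arrays, -0.55 and -0.94 at day 4, -3.13 and -3.09 at day 7, and -1.72 at day 10. Day 7 was far below the control and day 4 arrays, with a difference from control of -3.44 ± 0.24 (adjusted p = 0.0023). The day 10 array lay between day 4 and day 7. Cyp4a32 was not well above background at day 7 and was at least 6.67-fold lower (adjusted p = 0.0022). Cyp4f15, another omega-hydroxylase, was at least 3.32-fold lower (adjusted p = 0.011), with 1 of 2 control arrays above background, and the call was lost without day 7 replicate 1 (0.052) and under normexp background correction (0.122). At day 10, 15 of the 24 fell (62.5%, beside 17.6% of all features) and 1 rose (4.17%, beside 10.4%). Of 10 genes of the pyruvate dehydrogenase complex none was called at day 7 (2 at an unadjusted p under 0.05, where 22.6% of features were). Pdp1 (1.12 ± 0.35) and Pdp2 (-0.55 ± 0.28), its phosphatases, and Pdk3 (-1.04 ± 0.36), a kinase, had the smallest p. At day 10, 4 of the 10 fell (40%, beside 17.6% of all features) and 1 rose (10%, close to 10.4%). Of 14 genes of fatty acid synthesis 1 rose and 1 fell at day 7 (7.14% each, beside 2.96% and 4.5% of all features). At day 10, 3 of the 14 fell (21.4%, beside 17.6%) and 2 rose (14.3%, beside 10.4%). Acacb, the acetyl-CoA carboxylase whose product inhibits Cpt1a, fell by 1.98 (adjusted p = 0.010, lost without control replicate 1 at 0.056). Elovl5, an elongase, rose by 1.54 ± 0.27 (adjusted p = 0.027, lost without either control or either day 7 array at 0.051 to 0.114). Scd2, a desaturase, was at 2.25 ± 0.79 and not called.

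**Figure D4:**
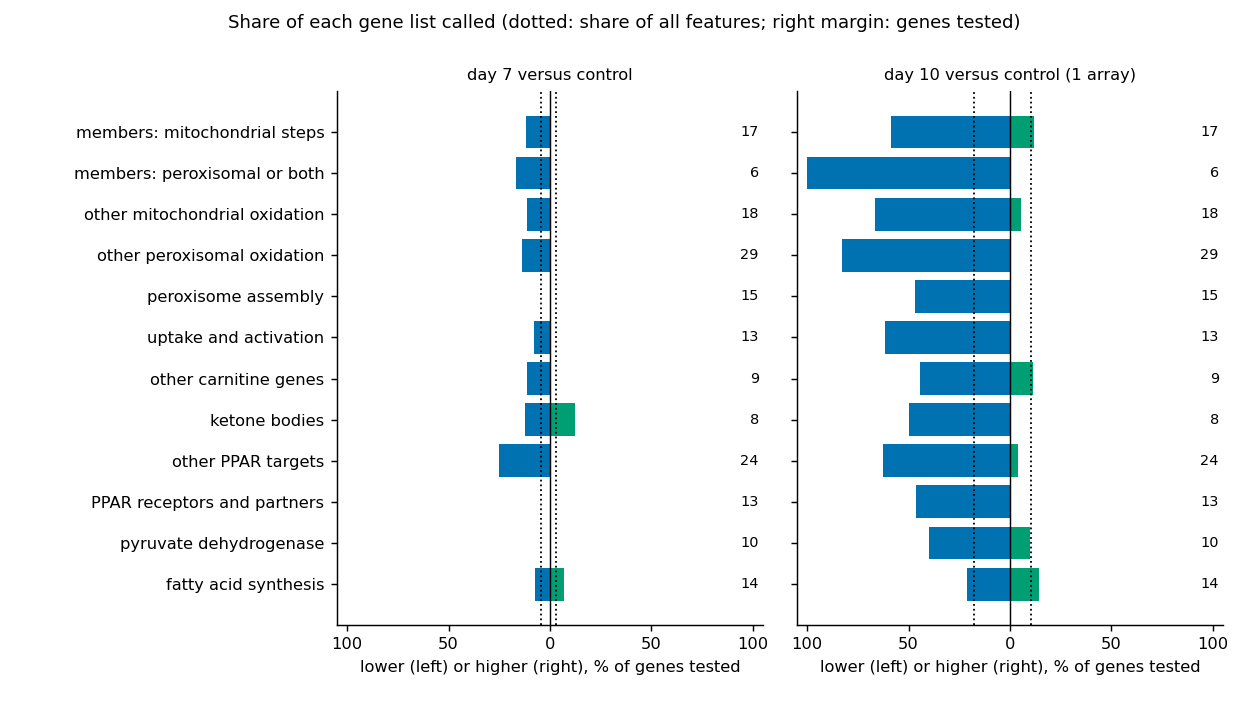
Share of the tested genes of each list that was called lower (left of 0) or higher (right of 0) than control, in percent, at day 7 and on the single array at day 10, with dotted lines at the shares of all features (4.5% lower and 2.96% higher at day 7, 17.6% and 10.4% at day 10) and the number tested at the right. Lower calls at day 10 reach 6 of 6 for members that are peroxisomal or in both organelles and 24 of 29 for other peroxisomal genes.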

How the data were processed

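RNA from 7 samples was hybridised to 1-colour Agilent arrays (design 028005, Cy3), and the intensity files were written by Feature Extraction 11.5.1.1, per the file headers. The deposited per-array files hold the authors' scanner intensity, background-subtracted by that software. A deposited table of intensity values matched it within 0.1% for 100% of single-spot probes, with column medians of 15.2 to 30.5, so it is linear and not centred.

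From these, log2 of the processed signal minus each array's 75th percentile was computed. Outlier spots were left out, spots of a probe averaged, and a gene represented by its brightest probe on average. Probes were named from their accession through RefSeq (GRCm38.p6), which gave 27509 of 55681 probes a symbol. Probes were kept when at least 2 of 7 arrays had them well above background. limma 3.58.1 (R 4.3.3; lmFit and eBayes) was fitted with 1 mean per group over all 7 arrays (3 residual and 3.16 prior degrees of freedom), 2-sided, with Benjamini-Hochberg adjustment over 24760 features. Values after ± are its standard errors, and 2 arrays a group, or 1 at day 10, limit their precision.

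The members, lists and motifs were chosen with earlier results of these data known. Up to 3 genes of each other list, those with the smallest p at day 7, and up to 4 promoters were named by rule, and members called in any comparison are given on every array. Alternatives were normexp background correction (offset 50, on median signals), other scalings, quantile normalization, no filter or a stricter one, the mean of a gene's probes, the deposited table, only the groups compared, the replicate block and leaving out each array. A fit with the slide as a block was not run, since all arrays shared a slide. The fit was tested on simulated data. No protein sequence was used. 2 genes of the other lists are not reported here and are in none of the list counts.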

Additional observations from a re-analysis of the deposited data

Results flagged for a closer look

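The knockout times differed from each other for 21 results on members, by limma's test of the difference between the times at an adjusted p under 0.05. Between day 4 and day 7 they were 4 of 33 members, beside 2.67% of all features: Vnn1 (2.41), Cyp4a10 (-2.41), Acot1 (-2.27) and Acaa2 (-1.22), given as day 7 minus day 4 on the log2 scale. Vnn1 was the one that rose.

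Between day 7 and day 10, given as day 10 minus day 7, they were 17 of 33 members, beside 17.9% of all features. The mitochondrial ones were Hadh (-3.10), Decr1 (-1.93), Acadm (-1.68), Acaa2 (-1.61), Acadvl (-1.28), Cpt2 (-1.17) and Eci1 (-1.10), which fell, and Acadl (1.58) and Cpt1a (1.26), which rose. The peroxisomal Ehhadh (-2.66) and Acaa1a (-2.09) and Ech1 (-1.19), known from both organelles, fell. Bdh1 (-1.03), Ppargc1a (-2.64), Angptl4 (-2.22) and Vnn1 (-1.39) fell, and Plin2 (1.61) rose. Vnn1 therefore rose from day 4 to day 7 and fell from day 7 to day 10. Day 10 is 1 array, assumed to vary like the other groups, and on it the enterocyte marker sum was 407 against 1979 to 2274 at day 7.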

How the results depend on the processing

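At day 7 against control 10 members were called under normexp background correction, 5 of them among the 6 called otherwise, and 3 to 5 without 1 control, day 4 or day 7 array (6 without the day 10 array, an alternative added after the data were seen). At day 7 against day 4 the count of 4 went to 1 with no filter on dim probes and to 0 to 3 without 1 control, day 4 or day 7 array (4 without the day 10 array). At day 10 against day 7 the count of 17 went to 11 with no filter, to 6 when only the groups compared were fitted, and to 10 to 15 without 1 array. At day 10 against control it was 21 to 28 in 16 alternatives, and 21 to 26 without 1 array. At day 4 it was 0 in all 17. Over all features, calls without the filter on dim probes numbered 913 against 1847 at day 7 and 116 against 661 at day 7 against day 4, and at day 4 the 8 calls became 2 to 27 under the scalings, corrections and filters tried. The cause of these shifts was not tested. Without a filter the adjustment ran over more features, and the fits that leave some arrays out held fewer arrays. The deviations of same-numbered arrays correlated at 0.008 (control and day 4), 0.086 (control and day 7) and 0.25 (day 4 and day 7). With 2 arrays a group these values cannot settle whether equal replicate numbers mark paired samples. A fit with the replicate number as a block called 0 members at day 4, 6 at day 7 (5 of the 6) and 3 at day 7 against day 4. It called 24 at day 10 and 13 at day 10 against day 7.

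For single members, the alternatives were run on 104 comparisons (all 33 tested members at day 7 and at day 10 against control, and those with an unadjusted p under 0.05 in the others), and among these the sign reversed in 11 cases, none of them called. At day 10 Acads was 0.36 under normexp. At day 7 under normexp Acads was 0.077, Acadm -0.18 and Hadhb 0.28, and under quantile normalization Hadhb was 0.070. Over the fits without 1 array at day 7, Acadl ranged from -0.32 to 0.13, Acadm from -0.064 to 0.099, Echs1 from -0.67 to 0.064 and Hadhb from -0.47 to 0.23. The rest stayed on the same side of the threshold in 1502 cases, lost a call in 165 and gained one in 32. The number of day 7 calls in the other lists ranged from 0 to 9 for the peroxisomal genes and from 2 to 7 for other PPAR targets. Signals near background in a compared group, as for Acsl6, give bounds only. Cyp4a14, not well above background on any array, has no bound.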
